A study of Drosophila melanogaster with 18 samples.

Results

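The proteasome subunit genes of Drosophila melanogaster were followed in single fly heads after appetitive olfactory training. Members were all genes whose symbol begins with Prosalpha or Prosbeta, or with Rpn or Rpt and a number, which gave 48 of the 17559 genes in the table. Of these, 32 are the canonical subunits: 7 of the alpha ring, 7 of the beta ring, 6 of the ATPase ring, 4 other subunits of the base and 8 of the lid. The other 16 are paralogs, named after the subunit they resemble with an added R or T. The members are spread over the genome, with 14 on 3R, 13 on 2R, 8 on 2L, 7 on 3L and 6 on X.

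Poly-A RNA was sequenced from 18 heads of starved flies, 6 per group, which the study's methods describe as female. The Sucrose group was trained with an odor and sucrose, a nutritious sweet sugar, and collected 4 h later. The Sorbose group was trained with sorbose, which tastes sweet to flies but does not feed them, and was also collected 4 h later. The Odor group was naive, was given the odor alone with no sugar, and carries no collection time in its labels. A difference from the Odor group therefore combines sugar, training and the time of collection, which cannot be told apart. No allele, driver or drug is named in the labels, and each library is a whole head, so a mixture of neurons, glia, photoreceptors, fat body and muscle. In such bulk samples, fewer cells of one type and less RNA per cell cannot be told apart. Nothing in the labels says that the heads of a group came from separate training sessions, so p-values measure the spread between flies only.

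The 26S proteasome is the protease that breaks down proteins tagged with ubiquitin. Its core particle is a barrel of stacked rings: the outer alpha rings control entry, and the inner beta rings hold the cutting sites. The regulatory particle caps the barrel; its base recognizes ubiquitin and unfolds the substrate with a ring of ATPases, and its lid removes the ubiquitin chain. In animals, the genes of these subunits are known to be transcribed together, in part through the factor that flies call cnc, and in neurons the proteasome takes part in remodelling synapses.

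Levels are given in RPKM, which scales the reads of a gene by its length in kilobases and by the size of the library. Effective libraries held 45.8 to 60.4 M reads in Sucrose heads, 46.8 to 65.6 M in Sorbose heads and 58.4 to 77.2 M in Odor heads. Neuron markers summed to 487 to 569 RPKM in Sucrose heads, 515 to 615 RPKM in Sorbose heads and 518 to 606 RPKM in Odor heads. Testis markers summed to at most 0.917 RPKM in any head. Along the first principal component of all tested genes, Odor replicates 1 and 6 lay farthest from the other heads, and calls lost without them are named with the results.

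All 32 canonical subunits were well expressed, with 879 to 8474 reads per gene and head. Mean levels per length ran from 18.8 to 59.5 RPKM in Sucrose heads, from 21.5 to 64.3 RPKM in Sorbose heads and from 21.9 to 68.6 RPKM in Odor heads. Prosalpha1, of the alpha ring, had the lowest mean in each group, and Rpn8, a lid subunit that pairs with the deubiquitinase Rpn11, had the highest. Rpn8 averaged 59.5 ± 1.36 RPKM in Sucrose heads, 64.3 ± 4.82 RPKM in Sorbose heads and 68.6 ± 4.46 RPKM in Odor heads (SD, n = 6 each). Next to it stood Prosalpha2, at 52.1 ± 3.43 RPKM in Sucrose heads, 60.0 ± 9.18 RPKM in Sorbose heads and 66.8 ± 7.23 RPKM in Odor heads. In Sorbose and Odor heads the levels of Rpn8 and Prosalpha2 overlapped, while in Sucrose heads the highest Prosalpha2 value, 56.6 RPKM, lay below the lowest Rpn8 value, 57.1 RPKM. All canonical subunits thus lay within a few fold of each other.

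Taken as one module, the canonical subunits were lower in Sucrose heads than in Odor heads, with Sorbose heads spread across the range of both. The 32 genes together summed to 1044, 1095 and 1243 RPKM in Sucrose heads (lowest, median and highest), 1047, 1167 and 1500 RPKM in Sorbose heads and 1164, 1298 and 1480 RPKM in Odor heads. This was 0.225 ± 0.014% of all summed RPKM in Sucrose heads, 0.253 ± 0.032% in Sorbose heads and 0.266 ± 0.026% in Odor heads (SD, n = 6 each). The groups overlapped in both: by summed RPKM, Sucrose replicate 3 lay within the Odor range and Odor replicate 4 within the Sucrose range, while by share Sucrose replicates 4 and 5 lay within the Odor range. The mean of log2(RPKM + 0.5) over the module was 5.09 ± 0.09 in Sucrose heads, 5.24 ± 0.20 in Sorbose heads and 5.34 ± 0.13 in Odor heads. These sums and means are descriptions and carry no test, since the members were chosen with results known.

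**Figure D1:**
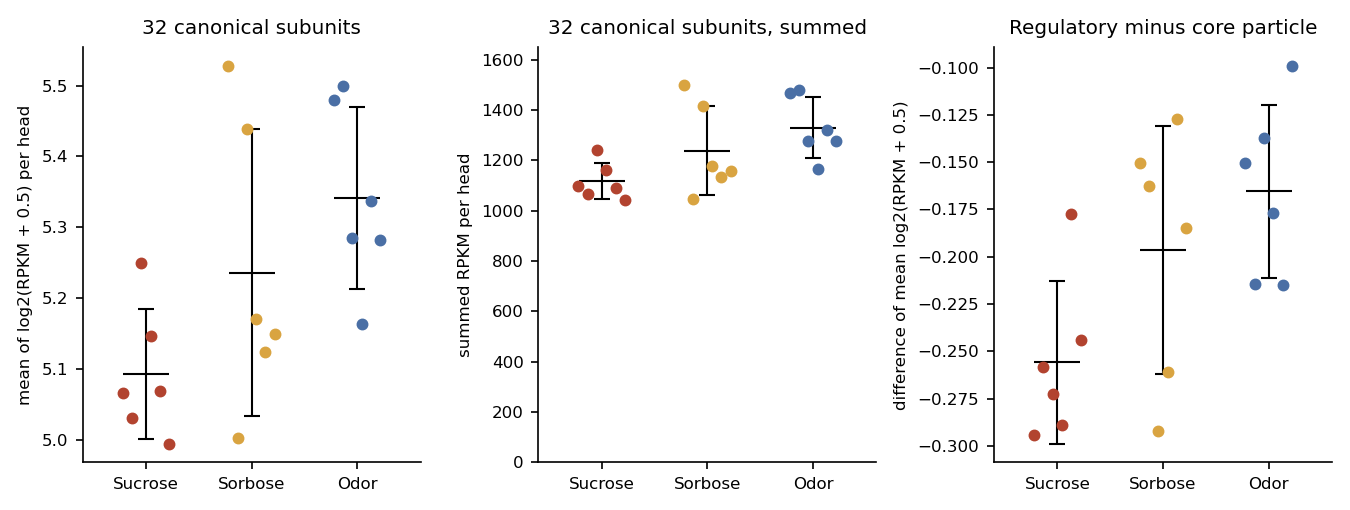
Per head in the Sucrose, Sorbose and Odor groups (points in replicate order, bars for means ± SD, n = 6), the mean of log2(RPKM + 0.5) over the 32 canonical subunits (left), their summed RPKM (middle), and the mean log2 level of the 18 regulatory subunits minus that of the 14 core subunits (right). Sucrose heads lie between 1044 and 1243 summed RPKM and Odor heads between 1164 and 1480; in the Sorbose group 2 heads stand above the other 4.

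To find which subunits differed after training with sucrose, each gene was compared between Sucrose and Odor heads. All 32 canonical subunits had a lower mean log2 level in Sucrose heads, and 17 of them fell (limma, adjusted p under 0.05 over 11062 genes). That is 53.1% of the canonical subunits, against 14.4% of all tested genes called lower. The median log2 difference was −0.25 over the canonical subunits and 0.00 over all tested genes. Counting paralogs, 18 of the 35 tested members were called in either direction, beside 27.5% of all tested genes. The differences were small: the fitted values ran from −0.46 to −0.08 on the log2 scale, and none reached 0.5. In 4 of the 32, every Sucrose head lay below every Odor head (Rpn1, Rpn2, Rpn5 and Rpn13), a share of 12.5% beside 5% of all tested genes.

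The number of calls depended on single heads. It was 8 of 32 without Odor replicate 1, where 11% of all tested genes were called lower, and 10 of 32 without Odor replicate 2 (13.1%) or without Sucrose replicate 2 (11.8%). Leaving out Odor replicates 1 and 6 together, a choice made after seeing the data, left 5 calls, namely Rpn13, Rpn6, Rpt1, Rpn5 and Rpt2. These are 15.6% of the canonical subunits, beside 8% of all tested genes called lower at that setting, so the distance from the background was far smaller than with all heads. The other 12 calls were lost there, at limma adjusted p from 0.0523 (Rpt5) to 0.157 (Rpn3). Among them were Rpn1 (0.0729), Rpn8 (0.0658), Rpn11 (0.0895), Rpt4 (0.0979), Rpn7 (0.12) and Rpt3 (0.122). The size of the shift moved less: without those heads all 32 subunits were still lower and the median log2 difference was −0.22.

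**Figure D2:**
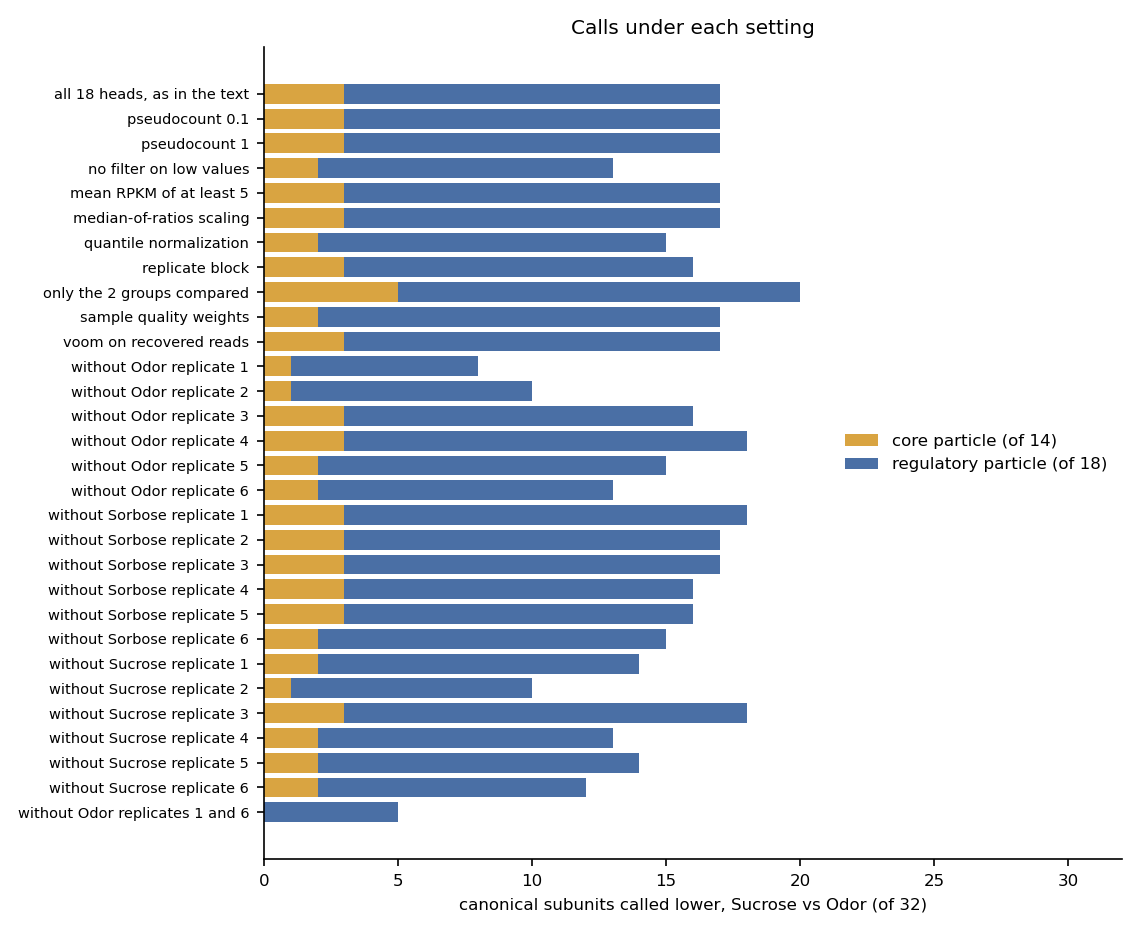
Number of canonical subunits called lower in Sucrose than in Odor heads under each setting, split into core (of 14) and regulatory (of 18) subunits. The count is 17 with all heads, 8 without Odor replicate 1 and 5 without Odor replicates 1 and 6, and regulatory subunits make up most of the calls in every bar.

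The calls were unevenly spread over the complex. In the regulatory particle 14 of 18 subunits fell, with a median log2 difference of −0.28, while in the core particle 3 of 14 fell, with a median of −0.18. These are 77.8% of the regulatory and 21.4% of the core subunits, beside 14.4% of all tested genes called lower. The core share thus lay near that of all genes. By class, 5 of 6 ATPases, 3 of 4 other base subunits, 6 of 8 lid subunits, 2 of 7 alpha subunits and 1 of 7 beta subunits were called lower. The share of the beta ring, 14.3%, was about that of all tested genes. Within each head, the mean log2 level of the regulatory subunits was below that of the core subunits. The gap was −0.29, −0.27 and −0.18 in Sucrose heads (lowest, median and highest), −0.29, −0.17 and −0.13 in Sorbose heads and −0.21, −0.16 and −0.10 in Odor heads. The gap was wider than the Odor mean of −0.17 in every Sucrose head, and the ranges overlapped. Sucrose replicate 5, at −0.18, lay close to that mean, which includes Odor replicates 1 and 6 at −0.15 and −0.10. Without those Odor heads 5 of 18 regulatory and 0 of 14 core subunits were called lower, beside 8% of all tested genes. The median log2 differences were then −0.26 and −0.19. The difference between the particles was not tested.

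In the base, the ubiquitin receptor Rpn13 and the scaffolds fell. Rpn13 (2R:13958545-13960404, dm6), which hands ubiquitinated proteins to the particle, had 24.2, 28.3 and 30.4 RPKM in Sucrose heads (lowest, median and highest), against 31.7, 39.2 and 47.8 RPKM in Odor heads. All Sucrose heads lay below all Odor heads, and the difference was −0.46 ± 0.10 on the log2 scale (SE, limma adjusted p = 0.0033). Rpn2 (3R:29153524-29157255), the scaffold of the base to which Rpn13 binds, had 17.2, 19.7 and 21.9 RPKM in Sucrose heads, against 22.6, 25.1 and 28.5 RPKM in Odor heads. Its groups did not overlap either, and it fell by 0.36 ± 0.10 on the log2 scale (limma adjusted p = 0.0157), though without Odor replicates 1 and 6 the adjusted p was 0.0837. The remaining large scaffold, Rpn1, which in yeast docks shuttle proteins carrying ubiquitinated cargo, averaged 21.5 ± 1.05 RPKM in Sucrose heads and 26.2 ± 1.52 RPKM in Odor heads (log2 difference −0.27 ± 0.08, limma adjusted p = 0.024). Rpn10, the other ubiquitin receptor of the base, was not called at −0.22 ± 0.08 (limma adjusted p = 0.0619).

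In the lid, Rpn6 and Rpn5 had the largest differences. Rpn6 (2R:14750166-14752910), which clamps the lid to the core particle in yeast, had 36.6, 40.6 and 44.0 RPKM in Sucrose heads (lowest, median and highest), against 42.9, 55.4 and 63.4 RPKM in Odor heads. The groups touched only through Odor replicate 4, the lowest Odor head, and the log2 difference was −0.46 ± 0.11 (limma adjusted p = 0.0054). Rpn5 (3R:5789493-5791569) had 26.8, 29.8 and 31.9 RPKM in Sucrose heads, against 32.9, 37.6 and 40.9 RPKM in Odor heads. It was lower in every Sucrose head than in any Odor head, by −0.34 ± 0.08 on the log2 scale (limma adjusted p = 0.0042). Rpn11, the metalloprotease that cuts off ubiquitin chains, fell by 0.30 ± 0.10 on the log2 scale (limma adjusted p = 0.0382), and its partner Rpn8 by 0.20 ± 0.05 (limma adjusted p = 0.0098). Rpn3 and Rpn7 fell by 0.27 and 0.24, while Rpn9 and Rpn12 were not called, at log2 differences of −0.13 and −0.17.

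Among the ATPases, which pull substrates into the core, all but Rpt6 fell. Rpt1 (2R:7652440-7653954) had 33.8, 35.8 and 40.7 RPKM in Sucrose heads (lowest, median and highest), against 38.7, 48.4 and 57.9 RPKM in Odor heads. Only Odor replicate 4 lay inside the Sucrose range, and the log2 difference was −0.40 ± 0.09 (SE, limma adjusted p = 0.0048). Rpt5 (3R:23752876-23754623), whose tail helps to open the core in yeast, had 20.6, 22.4 and 26.1 RPKM in Sucrose heads, against 25.2, 29.6 and 32.2 RPKM in Odor heads. It fell by 0.37 ± 0.09 on the log2 scale (limma adjusted p = 0.0091), and without Odor replicates 1 and 6 the adjusted p was 0.0523. Rpt2, Rpt3 and Rpt4 fell by 0.30, 0.29 and 0.23, with limma adjusted p values between 0.0230 and 0.0256. Rpt6 was at −0.16 ± 0.08 (limma adjusted p = 0.135).

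**Figure D3:**
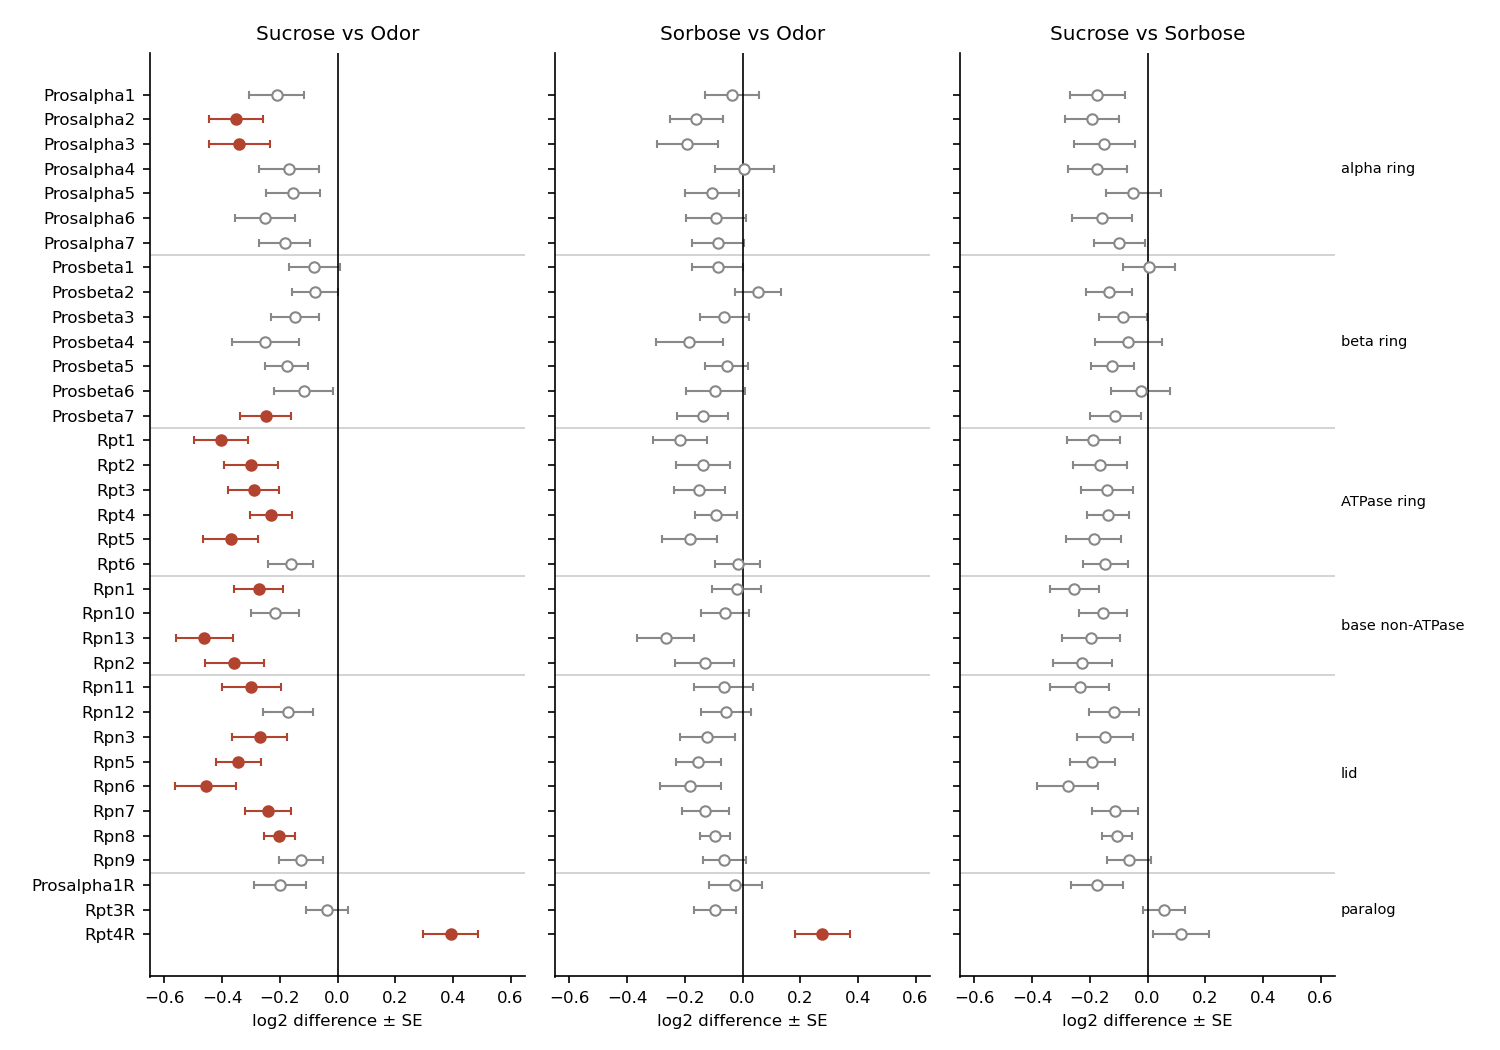
Log2 difference ± SE of each tested member in the 3 comparisons, by class; filled points were called by limma. In Sucrose against Odor all 32 canonical subunits lie left of 0 and 17 are filled, 14 of them in the regulatory particle; in the other comparisons no canonical subunit is filled, and Rpt4R is the only member right of 0 that was called.

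In the core particle the shift was smaller. Prosalpha2 (3R:12431321-12432556), an alpha ring subunit next to the place where Rpn6 binds in yeast, had 48.5, 50.7 and 56.6 RPKM in Sucrose heads (lowest, median and highest), against 54.6, 66.7 and 74.6 RPKM in Odor heads. It fell by 0.35 ± 0.09 on the log2 scale (limma adjusted p = 0.0102; 0.0535 without Odor replicates 1 and 6). Prosalpha3, whose tail helps to form the gate of the barrel in yeast, fell by 0.34 (limma adjusted p = 0.0251), and Prosbeta7 by 0.25 (limma adjusted p = 0.0439). None of these 3 was called without Odor replicates 1 and 6. The other 5 alpha subunits had log2 differences between −0.25 and −0.15, with limma adjusted p from 0.0818 to 0.247.

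The 3 subunits that carry the cutting sites were not called. Prosbeta5 (2R:10819978-10821178), the chymotrypsin-like site, had 42.8, 44.7 and 47.9 RPKM in Sucrose heads (lowest, median and highest), against 46.3, 49.9 and 57.5 RPKM in Odor heads, a log2 difference of −0.18 ± 0.07 (limma adjusted p = 0.0861). Prosbeta1 (2R:16013805-16014787), the caspase-like site, had 40.2, 43.8 and 46.6 RPKM in Sucrose heads, against 40.5, 45.1 and 54.4 RPKM in Odor heads, with −0.08 ± 0.09 (limma adjusted p = 0.539). Prosbeta2 (3L:14999951-15001319), the trypsin-like site, had 38.8, 41.4 and 47.2 RPKM in Sucrose heads, against 40.8, 45.1 and 48.7 RPKM in Odor heads, with −0.08 ± 0.08 (limma adjusted p = 0.497). The groups overlapped in all 3, and Prosbeta1 and Prosbeta2 had the smallest differences of the canonical subunits. A miss of the threshold at these errors does not show that the levels were equal.

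**Figure D4:**
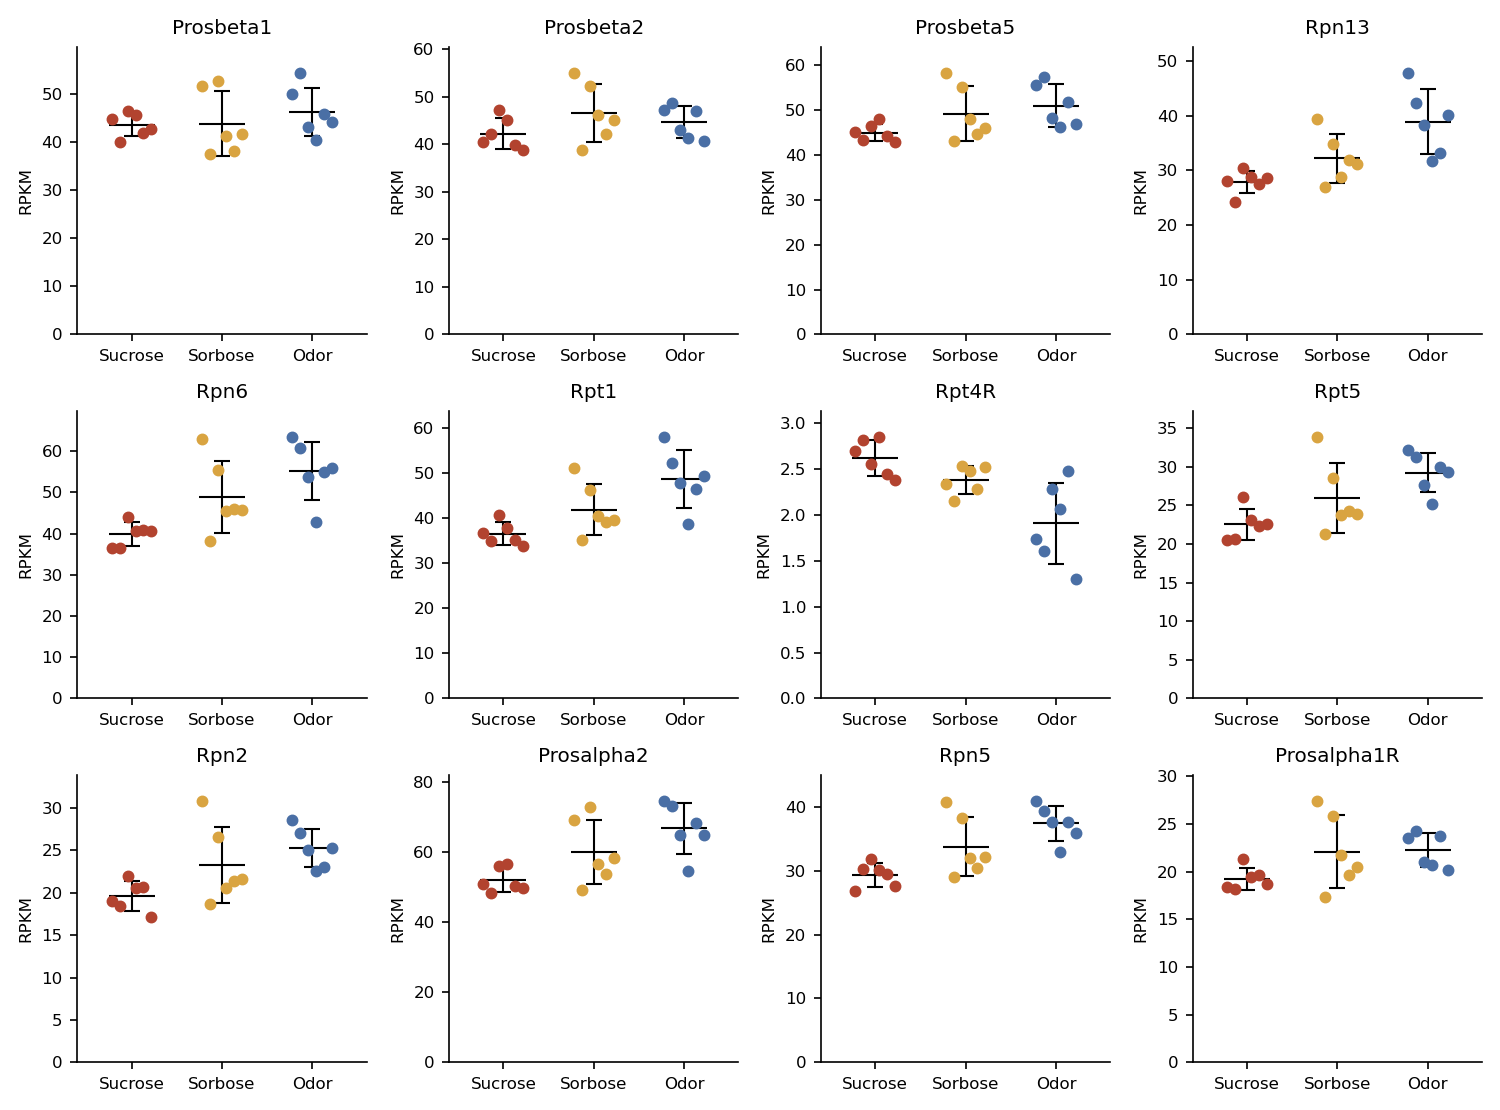
RPKM per head of the 3 catalytic subunits, the called members with the largest differences and the paralogs with the highest levels, in the Sucrose, Sorbose and Odor groups (points in replicate order, bars for means ± SD, n = 6). For Rpn13, Rpn2 and Rpn5 all Sucrose points lie below all Odor points, while Prosbeta1 and Prosbeta2 overlap and Rpt4R has its lowest points in the Odor group.

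Other features of the heads moved with the same comparison. Head fat body markers summed to 3628 to 12731 RPKM in Sucrose heads and 1283 to 4211 RPKM in Odor heads, and 3 of the 4 tested of 5 listed were called higher; the fifth, Fbp1, was at most 0.202 RPKM in any head. Haemocyte markers summed to 44.0 to 66.6 RPKM in Sucrose heads and 16.0 to 43.8 RPKM in Odor heads, and of the 4 listed 2 were called higher and 1 lower. No marker of either list was at 0 in all heads. Of 5 glial markers 2 were called higher and 1 lower, and the neuron and photoreceptor markers gave no call. Beside these marker counts, 13.1% of all tested genes were called higher and 14.4% lower in Sucrose heads. In Sorbose heads the shares were 12.2% higher and 12.2% lower. The Sucrose libraries were also smaller, at 54.3 ± 5.75 M reads, against 65.7 ± 7.53 M in Odor heads (SD, n = 6 each). In Sorbose heads the same haemocyte counts were found, 2 called higher and 1 lower, at 41.7 to 80.8 RPKM in sum; 1 head fat body marker was called higher, at 1320 to 5846 RPKM in sum, and 1 glial marker lower. The part of these features in the results for the canonical subunits, the paralogs and the related genes was not tested.

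In Sorbose heads most canonical subunits had lower means than in Odor heads, but no call was made. Of the 32 canonical subunits, 30 had a lower mean log2 level in Sorbose than in Odor heads and 2 a higher one (Prosalpha4 and Prosbeta2), none was called by limma, and 2 had an unadjusted p under 0.05. Of all tested genes, 12.2% were called lower and 24.4% in either direction. No canonical subunit had all Sorbose heads below all Odor heads, which 3.53% of all tested genes did. The median log2 difference over the canonical subunits was −0.09. The 2 subunits nearest the threshold were Rpn13 and Rpt1. Rpn13 had 26.9, 31.6 and 39.4 RPKM in Sorbose heads (lowest, median and highest), against 31.7, 39.2 and 47.8 RPKM in Odor heads, a log2 difference of −0.27 ± 0.10 (limma adjusted p = 0.0608). Rpt1 had 35.1, 39.9 and 51.1 RPKM in Sorbose heads, against 38.7, 48.4 and 57.9 RPKM in Odor heads, with −0.22 ± 0.09 (limma adjusted p = 0.0983).

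Leaving out Sorbose replicate 1 gave 4 calls among the canonical subunits, all lower (Rpn13, Rpt1, Rpt5 and Rpn5). That is 12.5% of them, near the 9.46% of all tested genes called lower at that setting. Leaving out Odor replicate 4 gave 2 calls (6.25%, beside 14.5% of all tested genes called lower). Without Odor replicate 5 there was 1 (3.12%, beside 14.3%). Sorbose replicates 1 and 3 held most of the spread of that group. Their module means were 5.53 and 5.44 on the log2 scale, against 5.00 to 5.17 in the other 4 Sorbose heads. The median CV of a canonical subunit over heads was 7.65% in Sucrose heads, 15.2% in Sorbose heads and 9.54% in Odor heads. On the log2 scale the median SD was 0.11 in Sucrose heads, 0.21 in Sorbose heads and 0.13 in Odor heads, beside 0.12, 0.12 and 0.15 over all tested genes in the same groups. In the Sorbose group alone, then, the canonical subunits varied more between flies than the median gene; this is a description with no test.

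Between the sugars, no member was called. The canonical subunits were lower in Sucrose than in Sorbose heads in 31 of 32 cases, all but Prosbeta1, with a median log2 difference of −0.15. Of all tested genes 0.00904% were called, which is 1 gene. By limma 5 canonical subunits had an unadjusted p under 0.05, namely Rpn1, Rpn6, Rpn5, Rpn11 and Rpn2, with adjusted p from 0.258 to 0.457. Rpn1 averaged 21.5 ± 1.05 RPKM in Sucrose heads and 26.1 ± 4.53 RPKM in Sorbose heads (SD, n = 6 each), a log2 difference of −0.25 ± 0.08 (limma adjusted p = 0.258). Rpn6 had 36.6, 40.6 and 44.0 RPKM in Sucrose heads (lowest, median and highest), against 38.2, 45.8 and 62.9 RPKM in Sorbose heads, with −0.28 ± 0.11 (limma adjusted p = 0.35). No canonical subunit had all Sucrose heads below all Sorbose heads, which 0.705% of all tested genes did. Hence the calls against Odor heads in the Sucrose group, and their absence in the Sorbose group, were not shown to differ between sugars.

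The catalytic subunits and the canonical subunits that led in Sucrose heads gave no call in Sorbose heads. Prosbeta5 had 43.2, 46.99 and 58.2 RPKM in Sorbose heads, Prosbeta1 had 37.5, 41.5 and 52.9 RPKM, and Prosbeta2 had 38.8, 45.7 and 55.0 RPKM (lowest, median and highest). Their log2 differences from Odor heads were −0.05 ± 0.07, −0.09 ± 0.09 and 0.05 ± 0.08. Rpn2 had 18.7, 21.5 and 30.8 RPKM, Rpn5 had 29.1, 32.05 and 40.7 RPKM, and Rpt5 had 21.3, 24.1 and 33.8 RPKM in Sorbose heads. In each of these genes the highest Sorbose head was close to or above the highest Odor head, while the lowest was below every Odor head.

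The paralogs were a separate case. Of the 16, only Prosalpha1R, Rpt4R and Rpt3R passed the minimum mean of 0.5 RPKM and were tested. The other 13 reached at most 0.832 RPKM in any head, and Prosbeta4R2 had no read in any of the 18 heads. Paralogs whose names carry a T, such as Prosalpha3T and Prosalpha6T, are known from the testis. Prosalpha3T was between 0.021 and 0.279 RPKM over all heads. The highest of the untested paralogs on average, Prosalpha4T1, had 0.39 ± 0.09 RPKM in Sucrose heads, 0.50 ± 0.09 RPKM in Sorbose heads and 0.48 ± 0.09 RPKM in Odor heads (SD, n = 6 each).

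Rpt4R (3L:11941912-11943485), a paralog of the ATPase Rpt4, was the only member to rise. It had 2.38, 2.63 and 2.85 RPKM in Sucrose heads (lowest, median and highest), 2.15, 2.41 and 2.53 RPKM in Sorbose heads and 1.30, 1.90 and 2.48 RPKM in Odor heads, from 142 to 261 reads per head. Odor replicates 1, 2 and 6 were the lowest heads, and the Sucrose and Odor ranges overlapped only through Odor replicate 5, the highest Odor head. The log2 difference from Odor heads was 0.39 ± 0.10 in Sucrose heads (limma adjusted p = 0.0072) and 0.28 ± 0.10 in Sorbose heads (limma adjusted p = 0.0453). The call in Sucrose heads held under all 28 alternatives that set no minimum log2 difference, with limma adjusted p up to 0.0391. The call in Sorbose heads held under 10 of 28, and without Odor replicates 1 and 6 its adjusted p was 0.258. Rpt4 itself, at 32.3 ± 2.67 RPKM in Sucrose heads and 38.0 ± 3.06 RPKM in Odor heads (SD, n = 6 each), fell in Sucrose heads and was not called in Sorbose heads (log2 difference −0.09 ± 0.07, limma adjusted p = 0.378).

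Prosalpha1R (2R:7830413-7831771) had 18.1, 19.0 and 21.3 RPKM in Sucrose heads, 17.3, 21.1 and 27.4 RPKM in Sorbose heads and 20.2, 22.3 and 24.2 RPKM in Odor heads (lowest, median and highest). It lies 1734 bases from Prosalpha1 on the same strand, and its RPKM was 0.969 to 1.09 times that of Prosalpha1 in every head. Reads of such a pair may have been split between the copies, so the values of both are uncertain. Neither was called in Sucrose heads (log2 difference −0.20 ± 0.09 for Prosalpha1R and −0.21 ± 0.10 for Prosalpha1, limma adjusted p = 0.109 for each). Rpt3R averaged 1.02 ± 0.04 RPKM in Sucrose heads, 0.966 ± 0.19 RPKM in Sorbose heads and 1.06 ± 0.09 RPKM in Odor heads, with no call.

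The canonical subunits varied together from head to head. Over the 496 pairs of canonical subunits, the median Pearson r of log2 values over 18 heads was 0.872, with a range from 0.519 to 0.977. With group means removed the median was 0.862. Before group means were removed, the mean r was 0.856 over the subunit pairs and 0.002 over all pairs of tested genes. The latter is a signed mean, in which positive and negative values can cancel, so it is not the r of a typical pair. These values are descriptions with no p, and genes measured in the same heads share library size and scaling. Rpn3, a lid subunit, followed the mean of the other canonical subunits most closely (r = 0.982), and Prosbeta6, of the beta ring, least closely (r = 0.827). The order of the heads was thus much the same from subunit to subunit, with Sorbose replicate 1, Odor replicate 2 and Odor replicate 1 at the top of the module mean and Sucrose replicate 6 and Sorbose replicate 2 at the bottom.

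The non-members whose profile was most like the module mean over the 18 heads were FBgn0261014 (r = 0.954, an identifier that the tables used here do not name), PSMG1 (r = 0.940), Txl (r = 0.935), CG1801 (r = 0.927) and CG7789 (r = 0.908). PSMG1 is the fly counterpart of a chaperone for assembly of the core particle in mammals, and Txl belongs to the thioredoxin-like proteins, of which the human form binds the proteasome. PSMG1 averaged 11.5 ± 1.13 RPKM in Sucrose heads, 13.5 ± 1.94 RPKM in Sorbose heads and 13.7 ± 1.16 RPKM in Odor heads (SD, n = 6 each). CG1801 shares 182 exonic bases with Rpt6 on the opposite strand. The library kit does not keep strand, so reads of such stretches cannot be assigned to either gene. Overlaps of this kind covered at most 12.96% of the exonic length of any canonical subunit.

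Of genes that act on the proteasome without being members, 25 in 3 lists were found in the table and tested. In Sucrose heads 6 of the 25 fell and 1 rose, and in Sorbose heads 5 fell and 3 rose. In either direction this was 28% of the lists in Sucrose heads and 32% in Sorbose heads, near the 27.5% and 24.4% of all tested genes. Called lower were 24% in Sucrose heads and 20% in Sorbose heads, beside 14.4% and 12.2% of all tested genes. The median log2 difference was −0.05 in Sucrose heads and −0.01 in Sorbose heads. No gene of the lists was called between the sugars. The haemocyte, fat body and glial markers given above moved in the same comparisons with Odor heads. The lists were chosen with earlier results of these data known.

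Of the 5 regulators of proteasome genes, 3 were called lower in Sucrose heads and 2 in Sorbose heads, beside 14.4% and 12.2% of all tested genes. cnc, the fly counterpart of the mammalian Nrf factors, averaged 20.9 ± 0.552 RPKM in Sucrose heads, 21.6 ± 1.76 RPKM in Sorbose heads and 27.2 ± 3.14 RPKM in Odor heads (SD, n = 6 each). Its log2 difference from Odor heads was −0.36 ± 0.07 in Sucrose heads (limma adjusted p = 0.0013) and −0.32 ± 0.07 in Sorbose heads (limma adjusted p = 0.0043), and it was called under all 29 alternatives in both. maf-S, the small Maf protein that pairs with cnc, had −0.39 ± 0.09 in Sucrose heads (limma adjusted p = 0.0038) and −0.33 ± 0.09 in Sorbose heads (limma adjusted p = 0.0121; 0.0887 without Odor replicates 1 and 6). rngo, which is related to the Ddi protease that activates an Nrf factor in mammals and worms, was called in Sucrose heads (−0.41 ± 0.12, limma adjusted p = 0.0196; 0.138 without Odor replicates 1 and 6), and its difference between the sugars was not called (limma adjusted p = 0.757). Keap1, which restrains the long form of cnc, and Pngl, a deglycosylase whose mammalian counterpart acts on Nrf1, were not called. Thus cnc and maf-S were called lower in both trained groups.

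Of the 6 tested genes listed as assembly factors and activators, none was called lower in either trained group. Of all tested genes 14.4% were called lower in Sucrose heads and 12.2% in Sorbose heads, and 6 genes are too few to set against these shares. PSMG1, given above, is not in this list. Its log2 difference from Odor heads was −0.24 in Sucrose heads and −0.03 in Sorbose heads, given here without a test. REG, the fly PA28 gamma activator that caps core particles in the nucleus, averaged 26.5 ± 2.22 RPKM in Sucrose heads and 22.3 ± 1.32 RPKM in Odor heads, and rose by 0.24 ± 0.07 on the log2 scale (limma adjusted p = 0.0249; 0.0831 without Odor replicates 1 and 6). Uch-L5, the deubiquitinase that binds Rpn13, was called higher in Sorbose heads (0.29 ± 0.10, limma adjusted p = 0.0412; 0.126 without Odor replicates 1 and 6), and under 16 of 29 alternatives. Pomp, which helps assemble the core, PI31, which binds it, Usp14, a deubiquitinase of the base, and Sem1, a small lid subunit outside the naming rule, were not called in either group. Sem1 had a log2 difference of −0.21 ± 0.10 in Sucrose heads (limma adjusted p = 0.131).

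Among 14 genes of ubiquitin supply and of the p97 pathway, which extracts ubiquitinated proteins, 3 fell in both trained groups. That is 21.4% of the tested genes of the list, beside 14.4% of all tested genes called lower in Sucrose heads and 12.2% in Sorbose heads. TER94, also listed, could not be matched by name and is not among the 14. Ubi-p5E, a polyubiquitin gene, averaged 296.9 ± 30.1 RPKM in Sucrose heads, 302.2 ± 39.2 RPKM in Sorbose heads and 418.0 ± 100.9 RPKM in Odor heads (SD, n = 6 each). Its log2 difference from Odor heads was −0.47 ± 0.13 in Sucrose heads (limma adjusted p = 0.0154) and −0.44 ± 0.13 in Sorbose heads (limma adjusted p = 0.0227), and neither was called without Odor replicates 1 and 6. ref(2)P, the fly p62 that brings ubiquitinated cargo to autophagy, averaged 87.8 ± 3.39 RPKM in Sucrose heads, 96.3 ± 3.184 RPKM in Sorbose heads and 122.4 ± 23.9 RPKM in Odor heads, with log2 differences of −0.45 ± 0.09 (limma adjusted p = 0.0027) and −0.32 ± 0.09 (limma adjusted p = 0.0216; 0.127 without those heads). STUB1, a ubiquitin ligase that works with chaperones, fell by 0.30 ± 0.06 in each trained group (limma adjusted p = 0.0022 in Sucrose and 0.0035 in Sorbose heads) and was called under all 29 alternatives in both. Uba1, the ubiquitin activating enzyme, and Uch, a hydrolase that recycles ubiquitin, were called higher in Sorbose heads, at 0.12 ± 0.04 and 0.23 ± 0.06 (limma adjusted p = 0.0258 and 0.0161), but not without Odor replicates 1 and 6. The other polyubiquitin gene, Ubi-p63E, was at −0.28 ± 0.11 in Sucrose heads (limma adjusted p = 0.0743). RpL40 and RpS27A, which encode ubiquitin fused to a ribosomal protein, were at −0.03 ± 0.11 and 0.00 ± 0.11 in Sucrose heads. Ufd1, Npl4, p47, Ubqn, Rad23 and Usp5 were not called in either group.

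**Figure D5:**
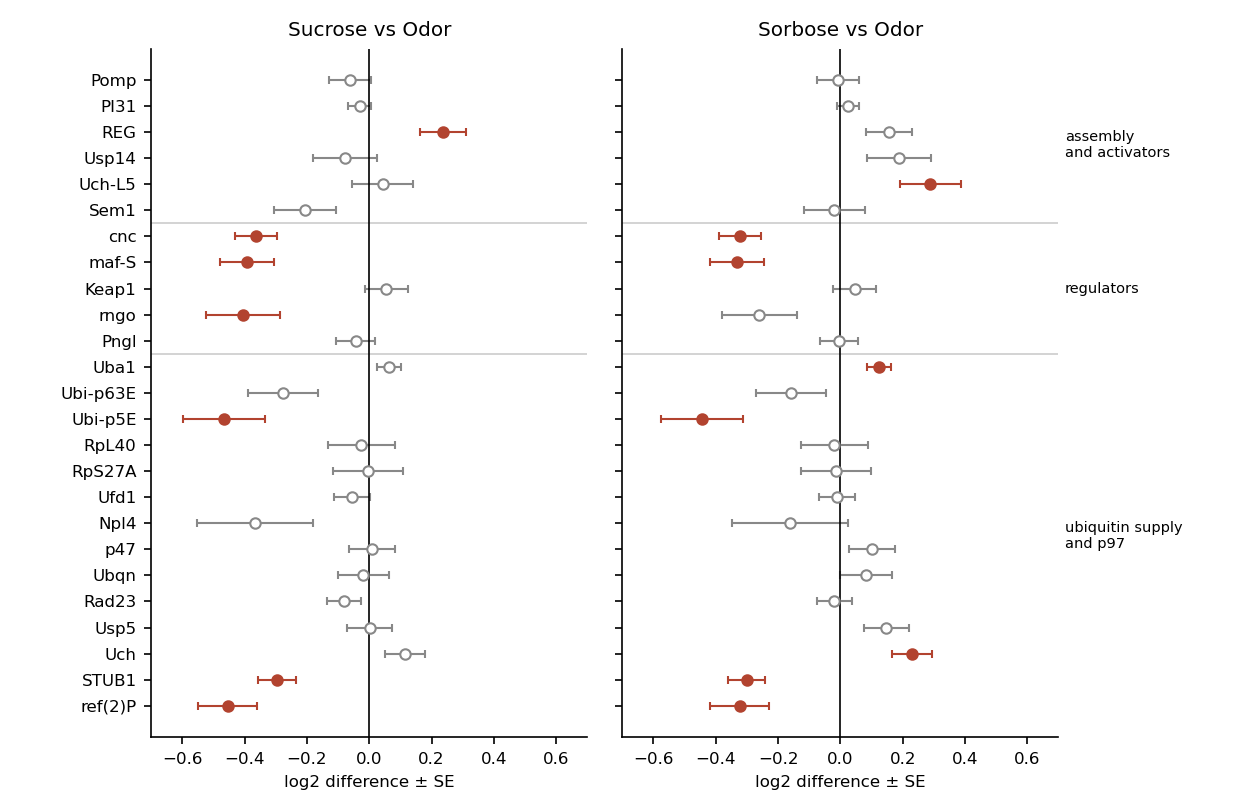
Log2 difference ± SE from Odor heads of the 25 tested genes that act on the proteasome, in Sucrose heads (left) and Sorbose heads (right), by list; filled points were called by limma. cnc, maf-S, Ubi-p5E, STUB1 and ref(2)P are filled and left of 0 in both panels; REG is filled right of 0 in Sucrose heads, and Uch-L5, Uba1 and Uch in Sorbose heads.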

How the data were processed

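Single fly heads were sequenced, 6 per group, and groups were taken from the labels. The deposited values are RPKM, 1 column per head. Per the labels and methods, the authors processed the reads with CASAVA 1.8.2, TopHat2 2.0.13 on dm6 and edgeR 3.18.1, on poly-A libraries without strand; another passage of the methods names an older aligner and genome. Of 17559 identifiers, 17253 took their symbol and coordinates from the Ensembl annotation of dm6. Library sizes were recovered from the steps of low RPKM values and exonic lengths: 98.1% of values came out as whole reads within 0.05 reads, and all 48 members did so in every head. These sizes are effective ones. The number of reads limits precision little here, and the spread between 6 heads is the main error.

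Values were taken as log2(RPKM + 0.5), a scale that understates changes of low genes. Genes averaging 0.5 RPKM or more over the heads were fitted with limma 3.58.1 in R 4.3.3 (3 groups, 18 heads, mean-variance trend, two-sided), with Benjamini-Hochberg adjustment over 11062 genes per comparison and a call at an adjusted p under 0.05. A count test was not the main test because RPKM are not counts. On simulated reads for the comparison of Sucrose with Odor heads (10560 genes, 200 changed), the fit recovered 2% of changes of 0.3 on the log2 scale, 55.5% of changes of 0.5 and 98.5% of changes of 1. The simulation gave every gene the same fixed spread, not that of these heads. It also changed a far smaller share of genes than the 27.5% called in the data. The recovered shares are therefore not the power for the subunits here. Leaving out single heads, scalings, filters, pseudocounts, weights and a replicate block were tried. A minimum of 0.5 on the log2 scale was also tried, and counts of alternatives for single genes leave that setting out. Members given head by head are the catalytic subunits, up to 8 called members with the largest differences per comparison, and the 2 paralogs with the highest mean. Members and lists were chosen with earlier results of these data known. TER94, Fub1 and wupA of the lists could not be matched by name, so no value is given under these names. They may be among the 306 identifiers that took no symbol from the annotation. CG13779 was also listed and is the same gene as Sem1. Protein and promoter sequences were not used here.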

Additional observations from a re-analysis of the deposited data

How the results depend on the processing

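The main count of members called between Sucrose and Odor heads was 18 of 35, beside 27.5% of all tested genes. It was 9 to 19 when single heads were left out. The 9 calls came without Odor replicate 1, where 20.6% of all tested genes were called. It was 6 without Odor replicates 1 and 6 (a choice made after seeing the data), beside 14.7% of all tested genes. At these 2 settings the calls among members were thus much nearer the background. The count was 0 when calls also had to reach 0.5 on the log2 scale. Under the other 10 settings it was within 1.5 times the main count, between 14 and 22. Between Sorbose and Odor heads the count was 1 of 35, beside 24.4% of all tested genes, and hinged on Rpt4R. It was 0 with no filter on low values, with a mean RPKM of at least 5, with quantile normalization, with only the groups compared, without Odor replicates 1 and 6 and with the minimum of 0.5 on the log2 scale, 3 with sample quality weights, and 0 to 4 when single heads were left out. Between the sugars it was 0 under all 30 alternatives. With the replicate number as a block the counts were 17, 1 and 0 in these comparisons, and the 1 call in Sorbose heads was Rpn13 in place of Rpt4R. Deviations of same-numbered heads had correlations from −0.34 to 0.44, of both signs. They were not set against heads of different numbers, so whether the numbers pair heads was not settled. No called value changed sign. Apart from the setting with the minimum of 0.5, Rpn13, Rpn6, Rpt1 and Rpn5 were called lower in Sucrose heads under all 29 alternatives. Rpt5, Rpn2 and Prosalpha2 were called under 28 of these. Over all tested genes the calls were 3041 between Sucrose and Odor heads and 1623 without Odor replicates 1 and 6, and 2702 between Sorbose and Odor heads, 917 without those heads and 1771 without Odor replicate 6. Between the sugars 1 gene was called, against 308 with sample quality weights, 49 without Sorbose replicate 2, 19 with quantile normalization and 8 with only the groups compared, no member among them. Limma-voom on the recovered reads called 2937, 2621 and 2 genes in the 3 comparisons. Each canonical subunit had at least 879 reads in every head, so depth mainly limits the paralogs.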
